A study of Mus musculus with 2 samples.

Results

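Solute carriers, ion channels and ATP-driven pumps move ions, nutrients and lipids across the membranes of a cell, and 68 of the 3134 genes listed for HP1 alpha eCLIP in mouse fibroblasts encode members of these families. They were chosen by symbol among the listed genes, with earlier results of these data known. The symbols start with Slc, Abc, Atp, Kcn, Cacn, Clcn, Trpc, Trpm, Trpv, Ano or Piezo in their numbered families. The mitochondrial carriers (Slc25), the ATP synthase subunits (Atp5) and the lncRNA Kcnq1ot1 were left out. By symbol, the 68 genes comprise 35 solute carriers, 24 pumps and 9 ion channels, and none is an anoctamin. The symbols also took in 3 genes whose products carry nothing across a membrane: the scaffold gene Slc9a3r1, the adaptor gene Trpc4ap and the translation factor gene Abcf1.

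The cells were NIH3T3, an established fibroblast line from mouse embryos, and the labels give them no treatment and no genetic change. In enhanced crosslinking and immunoprecipitation (eCLIP), ultraviolet light links proteins to RNA, the protein is precipitated, and the RNA that comes with it is sequenced. RNA precipitated by an HP1 alpha antibody gave 1 library, and RNA taken without antibody gave the other, labelled input. Of 15 fibroblast markers, 10 were listed, and 0 of the 3 immune, 4 epithelial, 3 endothelial and 3 neural markers were.

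HP1 alpha is a small protein that reads methylated histone H3 in compact chromatin, and it can also bind RNA. The RNA of a transporter gene is met in the nucleus as a long unspliced transcript and in the cytoplasm as a spliced mRNA, which is translated at the endoplasmic reticulum. Solute carriers work by facilitated or coupled transport, pumps spend ATP, and channels open a pore. Fibroblasts use them for amino acid and glucose uptake, for pH, calcium, zinc and iron balance, and for acidifying lysosomes.

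The deposited table gives read counts per gene, in all 513965 for HP1 alpha and 830031 for the input. Values below are a gene's share of the listed counts in the HP1 alpha library over its share in the input, called the ratio, with a 95% interval for counting error only. Each group had 1 library, so no difference could be set against the spread between replicates and no p-value was computed. A gene was called higher or lower when the ratio, taken with 0.5 added to each count, passed 2-fold and the interval excluded 1. A gene was listed when its count reached 100 in at least 1 library. A gene with fewer than 100 input counts therefore had a ratio of at least 1.63, and a gene with fewer than 61.9 HP1 alpha counts had a ratio below 1, by the limit alone. The first holds for Slc39a11 and the second for 15 of the 68 genes, Slc39a1, Atp13a2 and Slc35a3 among them. In NIH3T3 as in any bulk sample, more RNA per cell and more cells with the RNA cannot be told apart.

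As a class, transporter and channel genes lay at the middle of the table. The 68 genes held 8155 HP1 alpha counts, 1.59% of the listed total (1.55 to 1.62, exact binomial), and 13602 input counts, 1.64% (1.61 to 1.67). Their summed ratio was 0.968 (0.942 to 0.995). The median log2 ratio of the 68 was -0.20, against -0.21 over all listed genes, and 36 of the 68 were above the median of all genes. The class median stayed this close to the median of all genes under every scaling of the libraries, since a scaling adds the same constant to each gene. That constant was 0.20 with TMM factors and 0.21 with DESeq2 size factors, which placed 32 and 36 of the 68 above a ratio of 1, in place of 18.

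Only 3 of the 68 genes were called at 2-fold. The zinc carrier gene Slc39a11 was the 1 higher gene, where 2.36% of all listed genes were higher, and Slc39a1 and Atp13a2 were the 2 lower genes, against 0.83% of all. With TMM or DESeq2 scaling the higher genes were 3, with Cacna1c and Kcnq5 added, and the lower gene was Slc39a1 alone. Over all 3134 listed genes, 127 were higher and 9 lower with TMM factors, and 132 and 9 with DESeq2 size factors. At 1.5-fold, 4 genes were higher and 10 were lower, or 5.88% and 14.7% of the class, against 7.63% and 12.3% of all listed genes. An interval wholly above 1 was found for 8 of the 68 and one wholly below 1 for 20, against 15.4% and 32.6% of all listed genes. Those members' shares, 11.8% and 29.4%, are near the background and are no result about the class. The balance of these intervals turned with the scaling: it was 12 above and 11 below with TMM factors, against 23.3% and 13.7% of all genes, and 13 and 11 with DESeq2 size factors, against 23.9% and 12.4%.

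**Figure D1:**
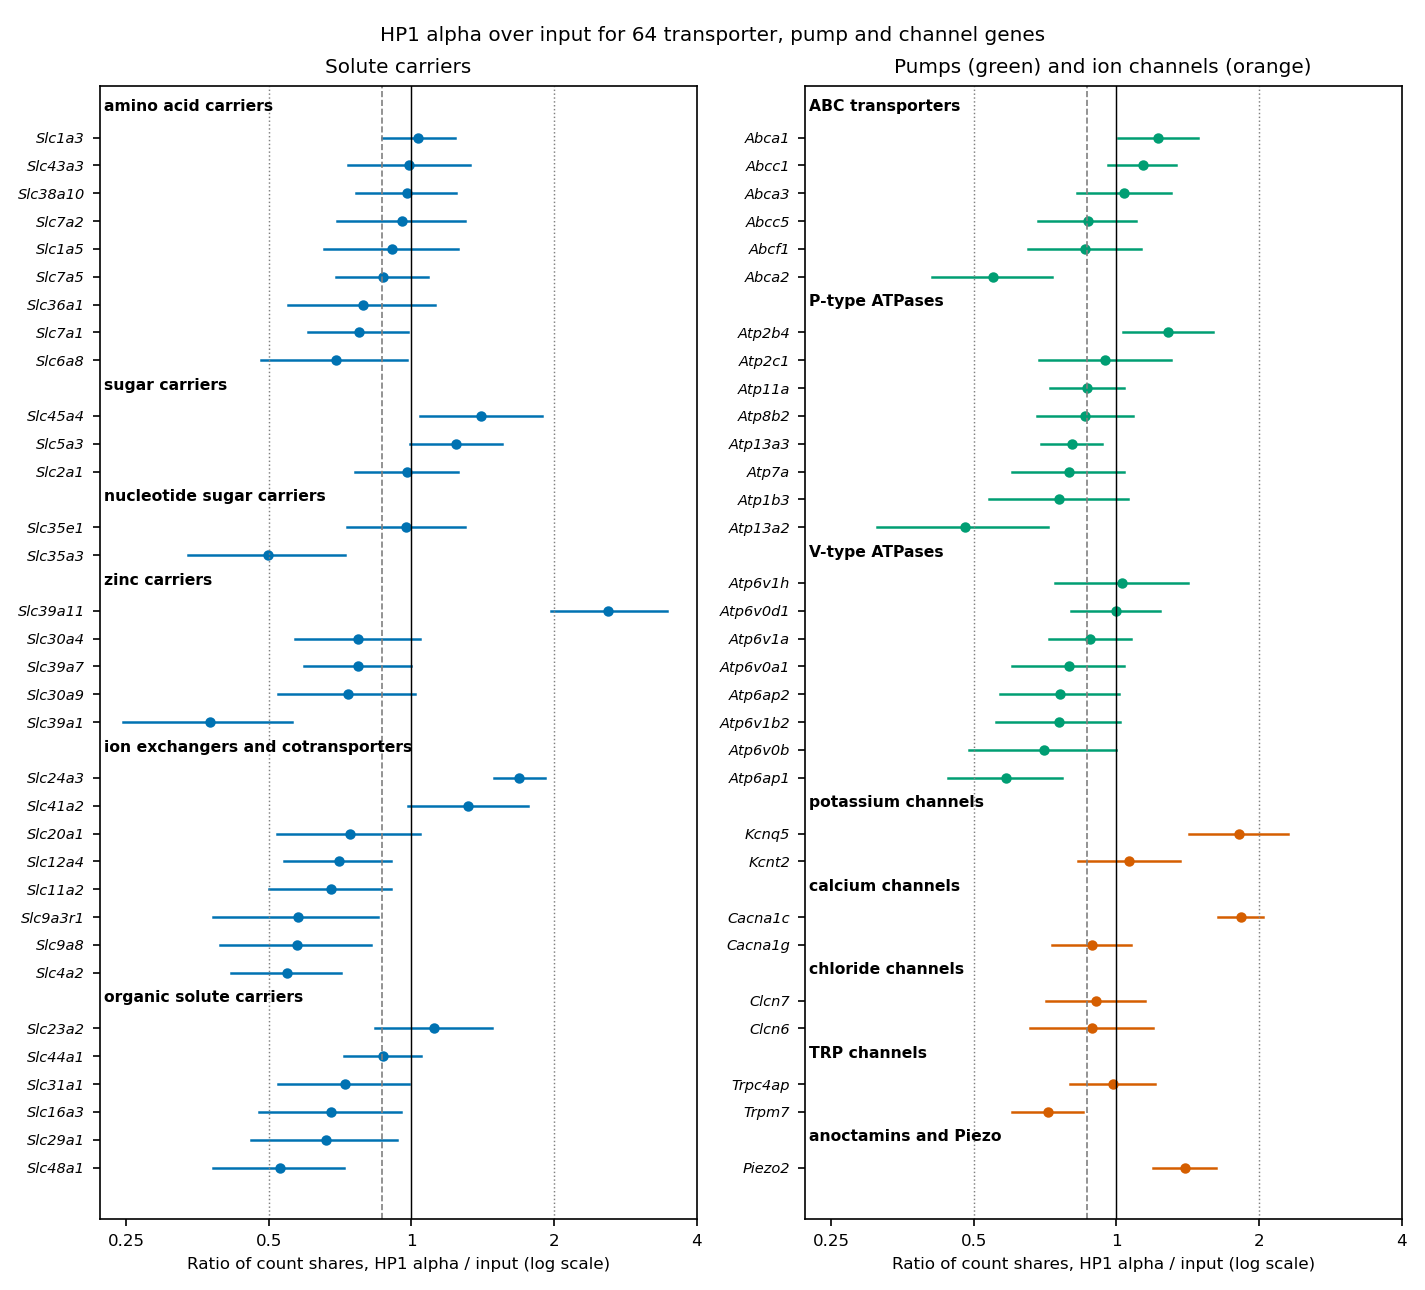
Ratio of HP1 alpha over input on a log scale for 64 of the 68 genes, by family; points are ratios from 1 library per group and bars are 95% counting intervals. The solid line marks 1, the dashed line the median of all listed genes and the dotted lines 2-fold; Slc39a11 lies to the right of 2, Slc39a1 and Atp13a2 lie to the left of 0.5.

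The 5 zinc carriers held both extremes of the class. Slc39a11 and Slc39a1 belong to the ZIP family, which brings zinc into the cytosol. Slc39a11 (ENSMUSG00000041654.11) had 134 HP1 alpha and 83 input counts, a ratio of 2.61 (1.97 to 3.47) that exceeded those of 99.6% of listed genes. It spans chromosome 11 from 113244851 to 113650200 in GRCm38.p6. Its input count lies under 100, so the listing limit set a floor of 1.63 for its ratio, though not its size. Slc39a1 (ENSMUSG00000052310.9), the zinc importer gene of the plasma membrane, had the lowest ratio of the 68. Its counts were 31 in HP1 alpha and 133 in the input, a ratio of 0.376 (0.246 to 0.560), below all but 0.0957% of listed genes. It spans only chromosome 3 from 90248190 to 90253613, and its HP1 alpha count alone fixed a ratio below 1. The intervals of these 2 paralogs are far apart. The third ZIP gene, Slc39a7, which encodes the zinc channel of the endoplasmic reticulum, had 89 and 186 counts, for a ratio of 0.773 (0.593 to 1.00). The zinc exporter genes Slc30a4 and Slc30a9 had 0.773 and 0.734, with intervals that included 1.

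The genes placed with the amino acid carriers by symbol covered a narrow range. The 9 genes ranged from 0.692 to 1.04 in ratio, 6 of them above the median of all listed genes, and none was called. Their median log2 ratio of -0.13 turned to 0.067 with TMM and 0.079 with DESeq2 scaling. Slc1a3, a glutamate carrier gene, was at the top with 209 and 326 counts, for a ratio of 1.04 (0.866 to 1.24). The glutamine carrier gene Slc1a5 had 62 and 110 counts, a ratio of 0.910 (0.656 to 1.25). Both intervals include 1. Of the Slc7 genes, Slc7a2 and Slc7a1 encode cationic amino acid carriers and Slc7a5 encodes the light chain of the large neutral amino acid carrier. Their ratios were 0.955, 0.774 and 0.870, and their intervals overlapped one another. Slc38a10 had 0.978, Slc43a3, placed here by its symbol alone, had 0.990, and the lysosomal carrier gene Slc36a1 had 0.791. Slc6a8, a creatine carrier gene that the symbol places here, was lowest, with 48 and 112 counts, for a ratio of 0.692 (0.483 to 0.979). Slc6a8 and Slc36a1 had fewer than 61.9 HP1 alpha counts, so the listing limit alone fixed their ratios below 1.

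All 3 carriers placed with the sugars lay above the median of all listed genes. The glucose carrier gene Slc2a1, which encodes GLUT1, had 106 and 175 counts, for a ratio of 0.978 (0.761 to 1.25). Slc45a4 had 87 and 100 counts, a ratio of 1.41 (1.04 to 1.89). Slc5a3, the myo-inositol carrier gene, had 145 and 188 counts, for a ratio of 1.25 (0.996 to 1.56). Slc5a3 lies inside another listed gene: 99.95% of its span is shared with Mrps6, a mitochondrial ribosomal protein gene with 205 and 264 counts, for a ratio of 1.25 (1.04 to 1.51). Reads of Slc5a3 and Mrps6 may therefore not be independent. The nucleotide sugar group had 2 genes. Slc35a3 (ENSMUSG00000027957.9), which carries UDP-N-acetylglucosamine into the Golgi, had 38 and 123 counts, for a ratio of 0.499 (0.337 to 0.723), just short of the 2-fold rule on the log2 scale with its pseudocount. Slc35e1 had 81 and 134 counts and 0.976 (0.732 to 1.30), so the 2 intervals did not overlap.

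Ion exchangers and cotransporters were spread more widely, from 0.548 to 1.69 over 10 genes. Slc24a3 (ENSMUSG00000063873.6), a potassium-dependent sodium-calcium exchanger gene on chromosome 2 from 145167775 to 145642166, had 538 and 514 counts. Its ratio was 1.69 (1.5 to 1.91), the fourth of the class, and its depth made it one of the most precise. The magnesium carrier gene Slc41a2 followed with 89 and 109 counts and 1.32 (0.985 to 1.76), an interval that still includes 1. At the low end, the anion exchanger gene Slc4a2 had 77 and 227 counts, for a ratio of 0.548 (0.417 to 0.712). Slc9a8, a sodium-proton exchanger gene of the Golgi, had 42 and 118 counts and 0.575 (0.394 to 0.824). Slc9a3r1, which encodes a scaffold for such exchangers, had 36 and 101 counts and 0.576 (0.382 to 0.850). The potassium-chloride cotransporter gene Slc12a4 had 87 and 200 counts and 0.703 (0.540 to 0.908). The iron importer gene Slc11a2 had 0.676 (0.501 to 0.905), and the phosphate carrier gene Slc20a1 had 0.742 (0.522 to 1.04). Slc9a8, Slc9a3r1 and Slc20a1 had fewer than 61.9 HP1 alpha counts, so the listing limit alone fixed their ratios below 1.

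Carriers of organic solutes, vitamins and copper were mostly below the median of all listed genes, with 2 of 6 above it. Their median log2 ratio was -0.51, and it remained negative at -0.31 with TMM and -0.30 with DESeq2 scaling. Relative to genes of like span it was -0.15. The haem carrier gene Slc48a1 was lowest with 54 and 165 counts, for a ratio of 0.529 (0.381 to 0.723). The nucleoside carrier gene Slc29a1 had 0.660, the lactate exporter gene Slc16a3 had 0.679 and the copper importer gene Slc31a1 had 0.723, each with an interval below 1. Each of these 4 had fewer than 61.9 HP1 alpha counts, so a ratio below 1 was fixed by the listing limit. Slc16a3 shares 12.3% of its span with Csnk1d, a kinase gene that had 1.39 (1.13 to 1.71). Slc48a1 and Slc31a1 touch Hdac7 and Fkbp15 by 32 and 14 bases. The choline carrier gene Slc44a1, with 175 and 325 counts, had 0.870 (0.719 to 1.05), and the vitamin C carrier gene Slc23a2 had 1.12 (0.839 to 1.48).

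Among pumps, the ABC transporters had the highest family median. The 7 ABC genes had a median log2 ratio of 0.057, which scaling raised to 0.25 with TMM and 0.27 with DESeq2, and 5 of the 7 exceeded the median of all listed genes. Abca1, the cholesterol exporter gene, had 185 and 244 counts, for a ratio of 1.22 (1.01 to 1.49). Abca2, its lysosomal relative, had 65 and 191 counts and 0.550 (0.408 to 0.732). The 2 intervals did not overlap, and Abca3, the third of the subfamily, lay between them at 1.04 (0.825 to 1.30). The drug and conjugate exporter genes Abcc1 and Abcc5 had 1.14 and 0.870. Abcf1, which encodes no transporter, had 0.859 (0.651 to 1.13).

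P-type ATPases, which pump cations or flip lipids, had 3 of 9 genes above the median of all listed genes. Their median log2 ratio was -0.31, and it was -0.11 with TMM and -0.10 with DESeq2 scaling. Atp2b4, the calcium pump gene of the plasma membrane, was highest with 153 and 192 counts, for a ratio of 1.29 (1.03 to 1.60). The Golgi calcium pump gene Atp2c1 had 0.948 (0.685 to 1.30). Atp1b3, a beta subunit gene of the sodium-potassium pump, had 54 and 115 counts and 0.758 (0.538 to 1.06). Atp13a2 (ENSMUSG00000036622.11), the gene of a lysosomal polyamine pump, had 32 and 108 counts and 0.479 (0.312 to 0.716). It spans chromosome 4 from 140986216 to 141007330, and with so few HP1 alpha counts it could be listed only with a ratio below 1. Atp13a3, a polyamine pump gene with the most input counts of all pumps, had 273 and 547 counts and 0.806 (0.694 to 0.934). The copper pump gene Atp7a had 0.793, and the lipid flippase genes Atp11a and Atp8b2 had 0.867 and 0.860, all with intervals that include 1.

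The V-type ATPase acidifies lysosomes and endosomes with a cytosolic V1 sector and a V0 sector in the membrane, and 8 of its genes were listed. Their ratios ran from 0.584 to 1.03, and their median log2 ratio was -0.36, or -0.16 with TMM and -0.15 with DESeq2 scaling. The V1 genes Atp6v1h, Atp6v1a and Atp6v1b2 had 1.03, 0.881 and 0.757. The V0 genes Atp6v0d1, Atp6v0a1 and Atp6v0b had 0.996, 0.793 and 0.703. Within each sector the 3 intervals overlapped. The accessory subunit gene Atp6ap1 was lowest with 73 and 202 counts and 0.584 (0.440 to 0.766), and the other accessory gene, Atp6ap2, had 73 and 155 counts and 0.761 (0.568 to 1.01). Summed over sectors, V1 had 0.876 (0.756 to 1.01), V0 had 0.865 (0.743 to 1.00) and the accessory pair had 0.660 (0.541 to 0.803), whose interval overlaps those of both sectors.

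Of the 9 genes placed with the channels by symbol, 8 lay above the median of all listed genes. The 9 include the adaptor gene Trpc4ap and the exchanger genes Clcn6 and Clcn7. Their median ratio was 0.983, the value of Trpc4ap. Relative to genes of like span, a comparison described further on, 5 of the 9 were above the median. Their summed ratio of 1.22 (1.15 to 1.29) rested on Cacna1c, since without that gene it was 1.03 (0.963 to 1.11). The gene with the most counts was Cacna1c (ENSMUSG00000051331.10), the pore subunit gene of the L-type calcium channel, on chromosome 6 from 118587240 to 119197384. It had 692 HP1 alpha and 611 input counts, the most of all 68 genes, and a ratio of 1.83 (1.64 to 2.04). Cacna1g, the pore subunit gene of a T-type channel, had 167 and 304 counts and 0.887 (0.730 to 1.07), an interval apart from that of Cacna1c. Set against genes of like span, Cacna1g was at 0.993 times their level, and its interval overlapped that of Cacna1c. Kcnq5 (ENSMUSG00000028033.12), a voltage-gated potassium channel gene on chromosome 1 from 21398399 to 21962650, had 148 and 132 counts and 1.81 (1.42 to 2.31). Kcnt2, a sodium-activated potassium channel gene, had 110 and 167 counts and 1.06 (0.828 to 1.36). The interval of Kcnq5 thus lay above that of Kcnt2. The touch-sensing channel gene Piezo2 had 318 and 368 counts and 1.40 (1.2 to 1.63). Trpm7, a cation channel joined to a kinase, was the 1 channel gene with an interval below 1, from 195 and 440 counts, for a ratio of 0.716 (0.602 to 0.849). Clcn6 and Clcn7, exchangers of late endosomes and lysosomes, had 0.889 and 0.906, and the adaptor gene Trpc4ap had 0.983 (0.799 to 1.21).

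**Figure D2:**
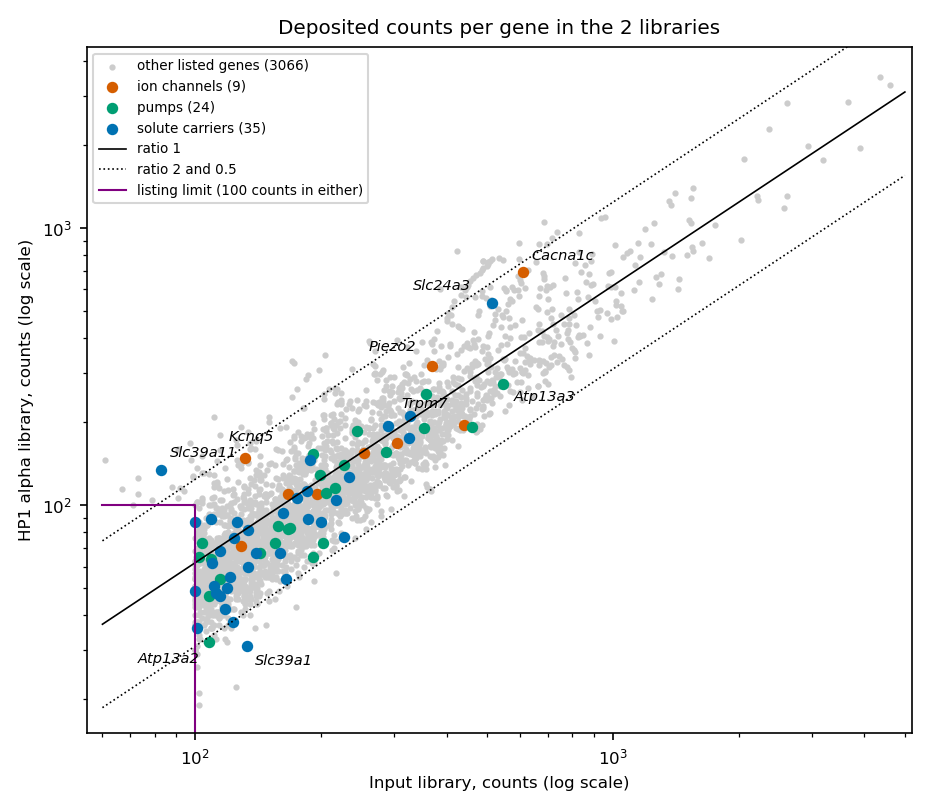
Counts in the input (x) and the HP1 alpha library (y) on log axes for the 68 genes, coloured by class, and the 3066 other listed genes in grey. The solid line is a ratio of 1, the dotted lines are 2-fold, and the purple corner is the listing limit of 100 counts; Slc39a11 is the 1 coloured point to the left of that limit, and Slc39a1 and Atp13a2 lie low beside it.

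The ratio was larger in longer genes of the class, a feature that the choice of symbols did not use. Whether reads were counted over introns is not given in the sources used here, and how far this relation depends on it was not tested. All 68 genes had a position in the RefSeq table, and their spans (first to last base, introns included) ran from 3.0 kb for Atp6v0b to 610 kb for Cacna1c, with a median of 45.3 kb against 48.2 kb for all listed genes. The 6 genes of up to 10 kb (Slc39a1, Slc48a1, Atp6ap1, Slc6a8, Atp6v0b and Slc39a7) had ratios from 0.376 to 0.773. The 6 genes above 200 kb (Slc39a11, Cacna1c, Kcnq5, Slc24a3, Piezo2 and Kcnt2) had ratios from 1.06 to 2.61, so the shortest and longest members did not overlap. The listing limit fixed part of this: it held Slc39a1, Slc48a1, Slc6a8 and Atp6v0b below 1 and Slc39a11 at 1.63 or more. Over all listed genes, ratios at these spans did overlap, as with Actb (4.86 kb, 1.03) and Acaca (272 kb, 0.812). Not every extreme followed length: Atp13a2 and Slc35a3, among the 3 lowest ratios, span 21.1 and 43.2 kb, and Slc45a4, the fifth highest, spans 68.3 kb. The medians of the 6 shortest and the 6 longest members were 0.638 and 1.75, against 0.731 and 1.40 for the 292 and 298 listed genes of the same spans. Between them, the median was 0.679 for the 9 members of 10 to 20 kb, 0.773 for 21 of 20 to 50 kb, 0.946 for 18 of 50 to 100 kb and 1.04 for 8 of 100 to 200 kb. All listed genes of those spans had 0.742, 0.807, 0.890 and 1.07.

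Across the 68 genes, Spearman's rho between span and log2 ratio was 0.69, and Pearson's r on the log10 of the span was 0.72. For all 3089 listed genes with a span, rho was 0.61 and r was 0.60. These are correlations across genes of the same 2 libraries, which are not independent replicates, and they are given as a description. Without the 2 longest genes, Cacna1c and Kcnq5, rho was 0.66 and r was 0.67 over 66 genes. Among the 28 members with at least 100 counts in both libraries, rho was 0.50 and r was 0.69.

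**Figure D3:**
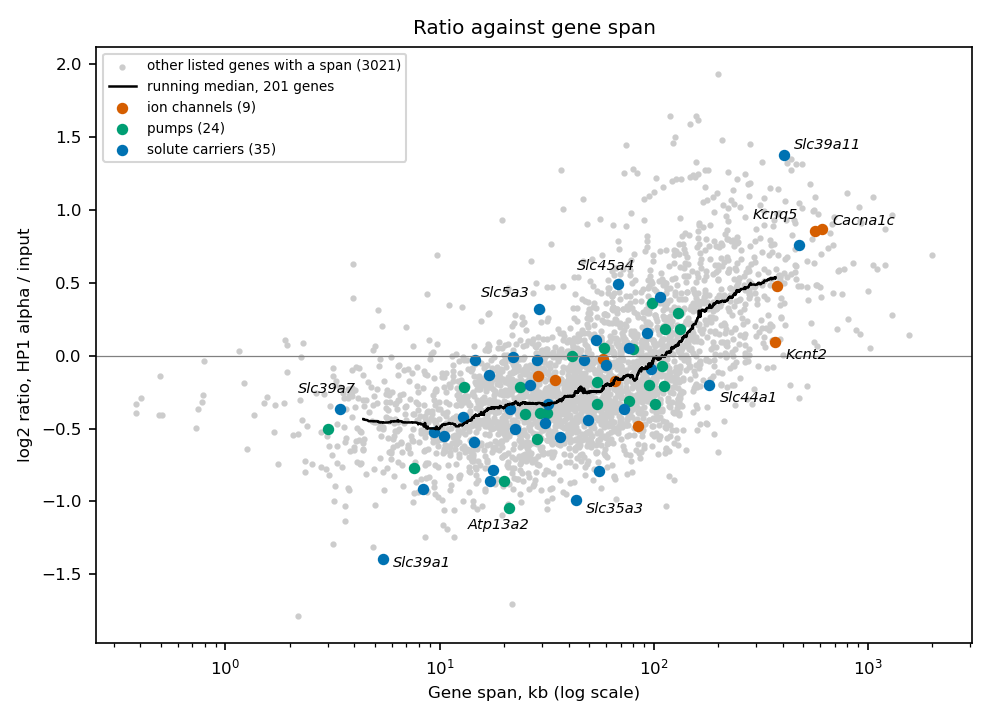
Log2 ratio of HP1 alpha over input (y) against gene span in kb on a log axis (x) for the 68 genes, coloured by class, and 3021 other listed genes in grey; the black line is the running median of 201 genes. Coloured points rise with span along the line, with Slc39a11, Slc45a4 and Slc5a3 well above it and Slc39a1, Slc35a3 and Atp13a2 well below it.

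Each gene was then set against the median of the 200 listed genes nearest to it in span, and no member differed from it by 2-fold, where 1.23% of listed genes were higher and 0.129% lower. The median of the 68 was -0.015 on this log2 scale, with 33 above 0. At 1.5-fold, 3 were higher (Slc39a11, Slc45a4 and Slc5a3) and 3 were lower (Slc39a1, Slc35a3 and Atp13a2), or 4.41% each way, against 5.34% and 2.4% of all genes with a span. Slc39a11 was 1.83 times the level of genes of like span (1.38 to 2.44), and Slc39a1 was 0.521 times (0.336 to 0.765). These 2 zinc carriers were still at either end, by smaller margins. On this scale too, the listing limit fixed the side of 1 for Slc39a11 and for the 3 lower genes, though not the size. Slc45a4 was at 1.57 times (1.16 to 2.11), Slc5a3 at 1.56 times (1.25 to 1.95), Slc35a3 at 0.596 times (0.399 to 0.856) and Atp13a2 at 0.610 times (0.393 to 0.902).

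The other members above 200 kb had lower values on this scale. Cacna1c had 1.26 times the level of genes of like span (1.13 to 1.41), Kcnq5 had 1.25 (0.984 to 1.60), Slc24a3 had 1.17 (1.04 to 1.33) and Piezo2 had 0.984 (0.844 to 1.15). Only Cacna1c and Slc24a3 of these 4 kept an interval above 1. Kcnt2 moved from 1.06 to the other side of 1, at 0.756 (0.588 to 0.965). The choline carrier gene Slc44a1, which spans 182 kb and had a ratio near the median of all genes, was at 0.693 (0.573 to 0.835). Trpm7 stayed low at 0.779 (0.653 to 0.922), as did Abca2 at 0.706 (0.521 to 0.935) and Slc4a2 at 0.706 (0.536 to 0.914). In the other direction, Atp2b4 was at 1.34 (1.07 to 1.66). In all, 8 members had an interval above 1 and 10 had one below 1, against 15.4% and 11.8% of genes with a span. By family, the median log2 difference was 0.64 for the 3 sugar carriers, of which Slc5a3 lies inside Mrps6, 0.18 for ABC transporters and 0.14 for amino acid carriers. It was -0.036 for zinc carriers, -0.060 for V-type ATPases, -0.10 for ion exchangers and cotransporters, -0.15 for organic solute carriers and -0.17 for P-type ATPases.

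**Figure D4:**
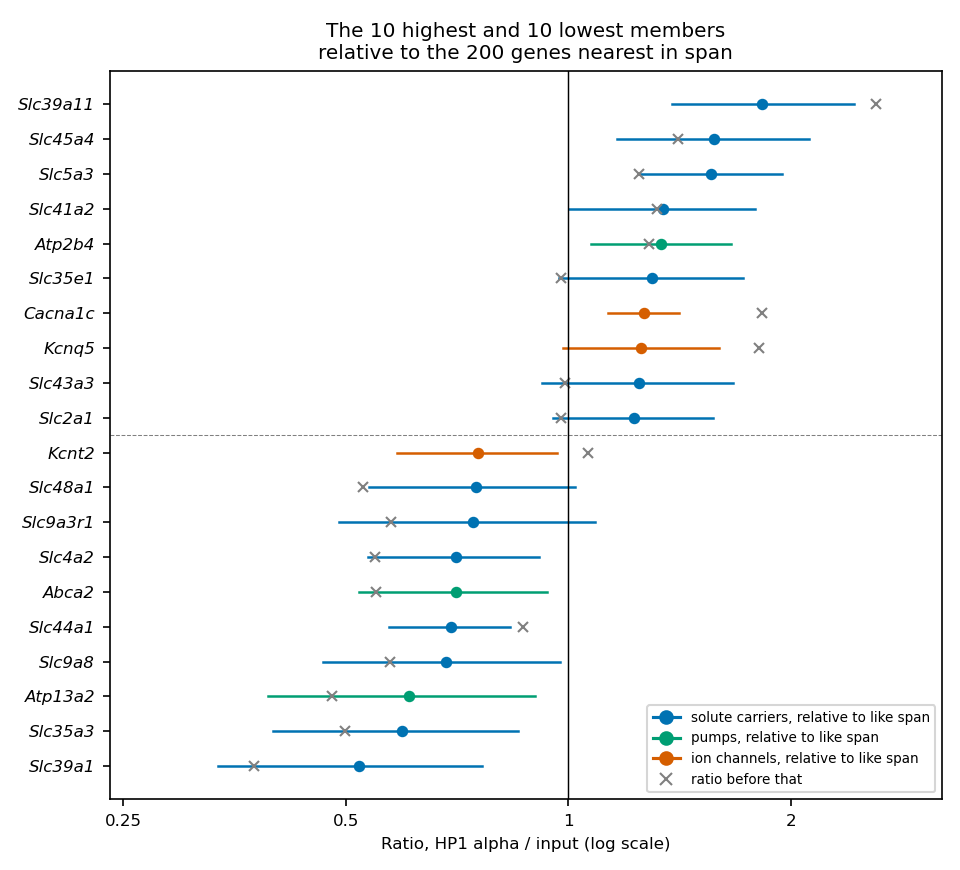
The 10 highest and 10 lowest of 64 of the 68 genes by their ratio relative to the median of the 200 listed genes nearest in span (coloured points, bars are 95% counting intervals), with the ratio before that comparison as grey crosses, on a log axis. Cacna1c and Kcnq5 move toward 1 from their crosses. Slc39a11 stays above 1 and Slc39a1 below 1, sides that the listing limit fixed.

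The position of Slc39a11 had a further feature. Its nearest listed gene on chromosome 11, at 43.01 kb, was the lncRNA 2610035D17Rik, which had 332 and 171 counts, for a ratio of 3.14 (2.6 to 3.79). For Cacna1c, Kcnq5 and Slc24a3, also above 200 kb, the nearest listed gene had a lower ratio than the member: Adipor2 beside Cacna1c had 1.26 (0.929 to 1.70), Tram2 beside Kcnq5 had 1.5 (1.22 to 1.86), and Rin2 beside Slc24a3 had 0.893 (0.701 to 1.13). Piezo2 went the other way, since its nearest listed gene, Mir143hg, had 1.91 (1.58 to 2.31), though at a distance of 1345 kb. Tpm3, the nearest listed gene to Slc39a1, had 0.796 (0.589 to 1.07). Over the 64 members that overlap no listed gene, rho between a gene's ratio and that of its nearest listed gene was 0.31, as a description. Whether span accounts for this was not tested.

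Genes of related function outside these symbols gave a similar picture. A pattern for other channels, carriers and their regulators took 28 listed genes, with a median log2 ratio of -0.23. Of these, 2 were higher and 0 were lower, against 2.36% and 0.83% of all genes. The higher genes were Mcu, the pore gene of mitochondrial calcium uptake, with 393 and 305 counts and 2.08 (1.79 to 2.42), and the organic anion carrier gene Slco3a1, with 199 and 150 counts and 2.14 (1.72 to 2.67). Both span well over the median, at 170 and 279 kb. The kinase gene Wnk1, a regulator of cation-chloride cotransport, was low for its 115 kb, with 349 and 877 counts and 0.643 (0.566 to 0.728). The calcium release channel genes Itpr2 and Itpr3 had 1.2 (0.921 to 1.56) and 0.806 (0.678 to 0.954). The pattern also took in Tmem164 and Tmem167, which are not known channel genes, at 1.86 and 0.602. The 15 mitochondrial carriers and ATP synthase genes left out by the rule, with a median span of only 7.47 kb, had a median log2 ratio of -0.27, with 0 higher and 0 lower.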

How the data were processed

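The authors deposited 1 table with read counts per gene for both libraries and a ratio of the 2; per the submitters' processing notes, reads were handled with STAR 2.6.0c, featureCounts and build GRCm38. For strand, duplicates and the counting of introns, settings were not given in the sources used here. The deposited ratio equals 1.66 times the ratio of counts throughout, a scaling for total mapped reads per the file headers. Columns are headed MEF, HP1 and mock, and the mock column was assigned to the library without antibody; 0 other sample columns were present. The members and gene lists were chosen with earlier results of these data known.

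Counts were divided by each library's listed total. Ratios have exact 95% Clopper-Pearson intervals from the split of the 2 counts, and log2 ratios use a pseudocount of 0.5. A member's interval had a median upper bound 1.73 times its lower bound. Intervals cover counting error only, and they may be too narrow where reads include PCR copies. Calls were tested on simulated data. Positions and spans came from RefSeq GRCm38.p6, where 2969 genes matched by symbol, 120 by a synonym and 45 not; all 68 members matched by symbol. Named genes are members called, the 8 highest and 8 lowest by interval bound, the 6 with most counts, family extremes, the 3 longest and shortest, and those under 100 input counts; other members are given beside them. Values of 4 members are not reported here one by one, nor drawn in the plots by gene, though these members count in every total and median. Alternatives used edgeR 4.0.16 (TMM), DESeq2 1.42.0 and the choices listed at the end.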

Additional observations from a re-analysis of the deposited data

How the results depend on the processing

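No paired analysis was possible because HP1 alpha and input have 1 library each. The number of members higher, 1 as reported, was 3 with TMM factors, 3 with DESeq2 size factors, 4 at 1.5-fold, 0 at a minimum of 400 counts over both libraries and 0 relative to genes of like span. The number lower, 2 as reported, was 1 with TMM factors, 1 with DESeq2 size factors, 1 with a pseudocount of 5, 10 at 1.5-fold, 0 at the minimum of 400 and 0 against genes of like span. The minimum of 400 left 15 members and none of the 3 called genes. For this minimum and for the pseudocount of 5, the share called over all listed genes is not given here. The counts under these 2 choices are therefore no result about the class. An alternative chosen after seeing the data left out genes whose direction the listing limit fixes. Then 52 members remained, with 0 higher and 0 lower, against 60 higher and 1 lower among the 2611 listed genes that remained. The member median log2 ratio, -0.20 as reported, was -0.0020 with TMM factors, 0.010 with DESeq2 size factors, -0.023 at the minimum of 400, -0.16 by the authors' constant, -0.015 relative to genes of like span and -0.11 without the genes fixed by the listing limit. The changes under scaling follow from the constant added to every gene. The channel sum without Cacna1c was also chosen after seeing the data. Bounds of a member's interval differed by up to 2.29 times, and each of the 3 called genes had fewer than 400 counts over both libraries.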
